A study of Mus musculus with 21 samples.

Results

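The locus described here was the stretch of mouse chromosome 4 that holds Cdkn2a, Cdkn2b and Mtap. It was taken as every non-control array probe lying within 3 Mb of the probes named for Cdkn2a, at mm9 chr4:85923293-91938124. This gave 202 of the 96336 probes on chromosomes 1 to 19 and X, against 5440 probes on the rest of chromosome 4. DNA dose was read by comparative genomic hybridization to oligonucleotide arrays, a method in which tumour DNA in one dye and reference DNA in another compete for the same probes. The 21 liver tumours came from C57BL/6 mice that all ate CD-HFD, a high-fat diet deficient in choline, for 12 months. The 12 anti-PD1 tumours came from animals that were then treated with an antibody to PD1, an inhibitory receptor of T cells, for 8 weeks, and the 9 CD-HFD tumours from animals on the diet alone. DNA was taken from formalin-fixed, paraffin-embedded sections, whose share of tumour cells is not given in the sources used here, and the common reference was a pool labelled as liver tails. Sample titles share a leading number between lesions of what was read as the same mouse, which gave 7 mice a group, although the series text counts 9 and 12 mice.

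Cdkn2a encodes a pair of tumour suppressors from overlapping reading frames. The p16Ink4a protein, like p15Ink4b from Cdkn2b, inhibits the cyclin D kinases Cdk4 and Cdk6 and so keeps Rb1 active, and p19Arf inhibits Mdm2 and so stabilizes p53. Mtap, the methionine salvage enzyme methylthioadenosine phosphorylase, lies beside them and is often co-deleted in cancers, where its loss makes cells sensitive to inhibition of the methyltransferase Prmt5.

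How well the arrays saw these genes differed between members. Cdkn2a had 5 named probes, all in introns, of which 4 were on the 8 arrays of slide 1, 3 on the 13 arrays of slides 2 and 3, and 2 on all 21. Slide 1 was of another array design, and 122 probes of the locus were on slide 1, 103 on slides 2 and 3, and 23 on both designs. For RefSeq transcript models on GRCm38, all 5 lay in intron 1 of the p19Arf transcript. A pair of them also lay in intron 1 of the p16Ink4a transcript, and the other 3 lay upstream of that transcript, so no probe touched an exon that either protein uses. Mtap had 3 named probes, with none shared by the designs. Cdkn2b had 0 named probes and 0 probes inside it. Its nearest probe was 14.1 kb away on slide 1, where it was a Cdkn2a probe, and 8.18 kb away on slides 2 and 3. That second probe lay outside GENCODE genes and was named in the files for the transcript AK148321. A deletion confined to Cdkn2b or to the Cdkn2a exons would have met no probe.

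The probes are shown because everything said of the member genes comes from these 60-base stretches. Capitals mark bases inside a coding exon, and only 1 Mtap probe has any, all 60. Each sequence has 1 exact match in GRCm38, on the plus strand. The first 3 read Mtap at mm9 chr4:88798052-88798111, chr4:88811955-88812014 and chr4:88822721-88822780.
Mtap A_67_P05311327 (slide 1): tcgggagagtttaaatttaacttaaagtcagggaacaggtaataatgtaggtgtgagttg
Mtap A_53_P106215 (slides 2 and 3): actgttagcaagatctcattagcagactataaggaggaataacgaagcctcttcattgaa
Mtap A_53_P146297 (slides 2 and 3): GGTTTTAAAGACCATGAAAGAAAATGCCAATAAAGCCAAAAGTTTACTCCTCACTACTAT
Cdkn2a A_67_P05311529 (slide 1, intron 1 of both transcripts): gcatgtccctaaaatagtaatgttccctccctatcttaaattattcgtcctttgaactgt
Cdkn2a A_67_P05311539 (slide 1, intron 1 of both transcripts): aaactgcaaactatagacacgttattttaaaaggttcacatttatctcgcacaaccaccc
Cdkn2a A_53_P131690 (all arrays): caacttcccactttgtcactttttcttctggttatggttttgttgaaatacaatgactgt
Cdkn2a A_67_P00925290 (slides 2 and 3): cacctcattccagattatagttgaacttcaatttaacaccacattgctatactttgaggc
Cdkn2a A_53_P176202 (all arrays): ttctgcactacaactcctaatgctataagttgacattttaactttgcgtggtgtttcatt
Nearest to Cdkn2b A_53_P119457 (slides 2 and 3): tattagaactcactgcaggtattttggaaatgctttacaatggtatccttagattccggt
The 5 Cdkn2a probes lie at mm9 chr4:88923293-88923352, chr4:88927265-88927324, chr4:88934358-88934417, chr4:88936288-88936347 and chr4:88938065-88938124, and the last probe at chr4:88943968-88944027.

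All values below are log2 ratios of tumour over reference, centred on the median of each array, so that a value of 0 is the middle of that tumour's genome. Loss of 1 of 2 copies in every cell of a sample would give -1, and admixed normal cells bring this closer to 0. The noise of a single probe, estimated from neighbouring probes, was 0.41 to 0.68 per array. In the tumour channel 65.0% or more of spots were well above background. Lesion 1 of mouse 608 had the lowest share, followed by lesion 1 of mouse 1770 (82.1%) and lesion 1 of mouse 2064 (85.8%), a pair whose values stand apart below.

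The dose of the locus did not differ between the groups beyond the spread between mice. The mean of the locus ran from -0.017 to 0.19 (median 0.11) in the 12 anti-PD1 tumours and from -0.25 to 0.21 (median 0.16) in the 9 CD-HFD tumours, so the groups overlapped and the lowest 2 tumours were both CD-HFD. Averaged by mouse it was 0.11 ± 0.055 (SD, n = 7) with anti-PD1 and 0.10 ± 0.096 (SD, n = 7) with CD-HFD, a difference of 0.012 (p = 0.77, two-sided exact permutation of mice over 3432 splits). Within 500 kb of Cdkn2a, a stretch of 22 probes on slide 1 and 18 on slides 2 and 3 that holds all 3 members, the means were 0.070 ± 0.070 and 0.047 ± 0.20 (SD, n = 7 each; exact permutation p = 0.79). The whole locus relative to the rest of chromosome 4 was at 0.16 ± 0.047 and 0.17 ± 0.044 (SD, n = 7 each; exact permutation p = 0.63). The lowest CD-HFD mouse within 500 kb was 2064 at -0.29, against -0.089 to 0.32 in the other 6. Without its lesion 1 the SD of CD-HFD was 0.14, still wider than the 0.070 of anti-PD1. Within slides, where each design is compared with itself, the difference within 500 kb was -0.076 on slide 1 (exact permutation p = 0.40) and 0.19 on slide 2 (exact permutation p = 0.20), with 3 mice a side, for which the smallest possible p is 0.10. On slide 3 it was -0.11 with a single CD-HFD mouse and no test. The sign thus differed between slides, and with the slide as a block the difference was 0.021 (p = 0.76, exact permutation within slides). The units of that test were mouse means within a slide, so the anti-PD1 mice 608, 612 and 2094 entered more than once.

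The locus was higher than the rest of its own chromosome in 21 of 21 tumours. The difference ran from 0.047 in lesion 2 of mouse 2094 to 0.27 in lesion 4 of mouse 1770, with a median of 0.18, and the standard error from the spread of probes was 0.040 to 0.071. Over mice it averaged 0.17 ± 0.044 (SD, n = 14; p = 0.00012, two-sided exact sign-flip permutation, the smallest these mice can give). The reference pool was common to all arrays and probes were shared within a design. A sign-flip p, here and below, therefore cannot tell a change in the tumours from an offset common to the arrays. Being off the chromosome was not particular to the locus. In limma across 2223 windows of 1 Mb, 5 of the 5 testable windows of the locus were higher than the rest of the chromosome over all mice at an adjusted p under 0.05, where 43.6% of all windows were higher, 30.5% lower and 74.2% one or the other. The window holding Cdkn2a and Mtap was higher by 0.19 ± 0.020 (SE, adjusted p = 1.1e-08, limma), and 86.1% of windows had a lower value. The next window, which holds Dmrta1, was higher by only 0.057 ± 0.023 (SE, adjusted p = 0.027, limma). A sixth window of the locus had too few probes on slides 2 and 3.

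Base composition moved with this offset. The 50 kb around a probe held 40.7% G and C on average in the locus, 44.2% on the rest of chromosome 4 and 43.3% on all chromosomes, while the probes themselves were alike at 36.1, 36.5 and 36.4%. After a correction for the GC of the probe and of these 50 kb, added after seeing the data, the offset over mice fell from 0.17 to 0.047, still above 0 in 14 of 14 mice (p = 0.00012, exact sign-flip permutation). By tumour it then ran from -0.031 to 0.14 and was above 0 in 19 of 21. Of the 5 windows 3 were then higher and 1 lower, where 30.6% of all windows were higher, 31.5% lower and 62.1% one or the other. The Cdkn2a window stayed higher at 0.089 ± 0.017 (SE, adjusted p = 7.3e-05, limma), and the Dmrta1 window turned to -0.096 ± 0.032 (SE, adjusted p = 0.013, limma). Against flanks lying 3 to 15 Mb away, the uncorrected offset of the locus was 0.039 (p = 0.054, exact sign-flip permutation). In the authors' loess-normalized table, which holds 20 probes of the locus, it was 0.024 (p = 0.36, exact sign-flip permutation).

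**Figure D1:**
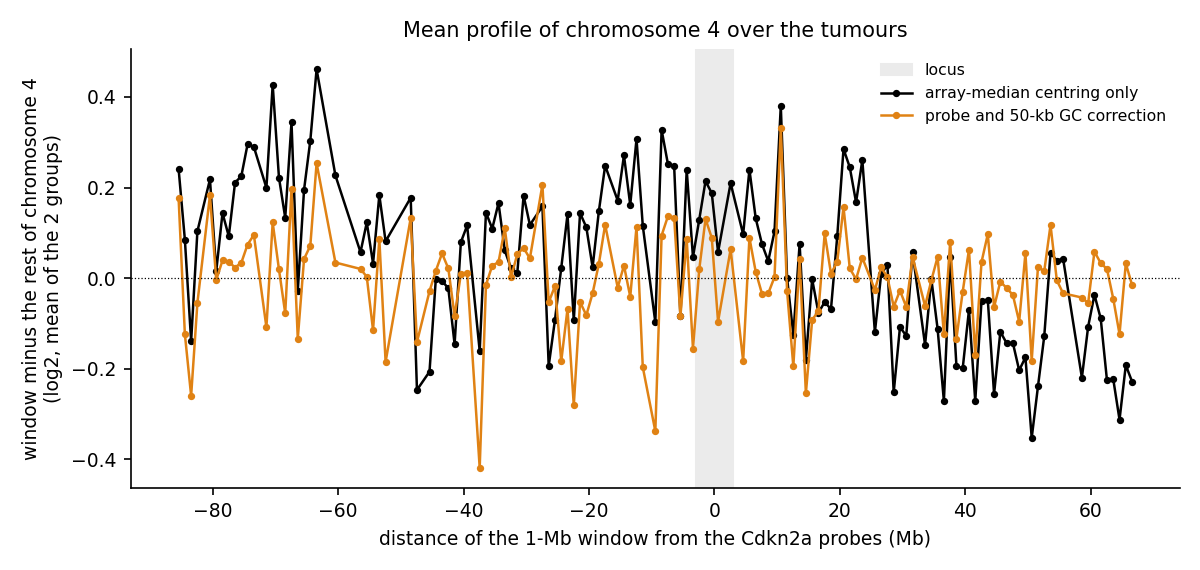
Mean over the groups of each 1-Mb window minus the rest of chromosome 4 (log2), against its distance from the Cdkn2a probes in Mb, before (black) and after (orange) correction for probe and 50-kb GC content; the grey band is the locus. The Cdkn2a window was at 0.19 before and 0.089 after correction, and other windows of the chromosome ran from -0.35 to 0.46 before and from -0.42 to 0.33 after it.

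**Figure D2:**
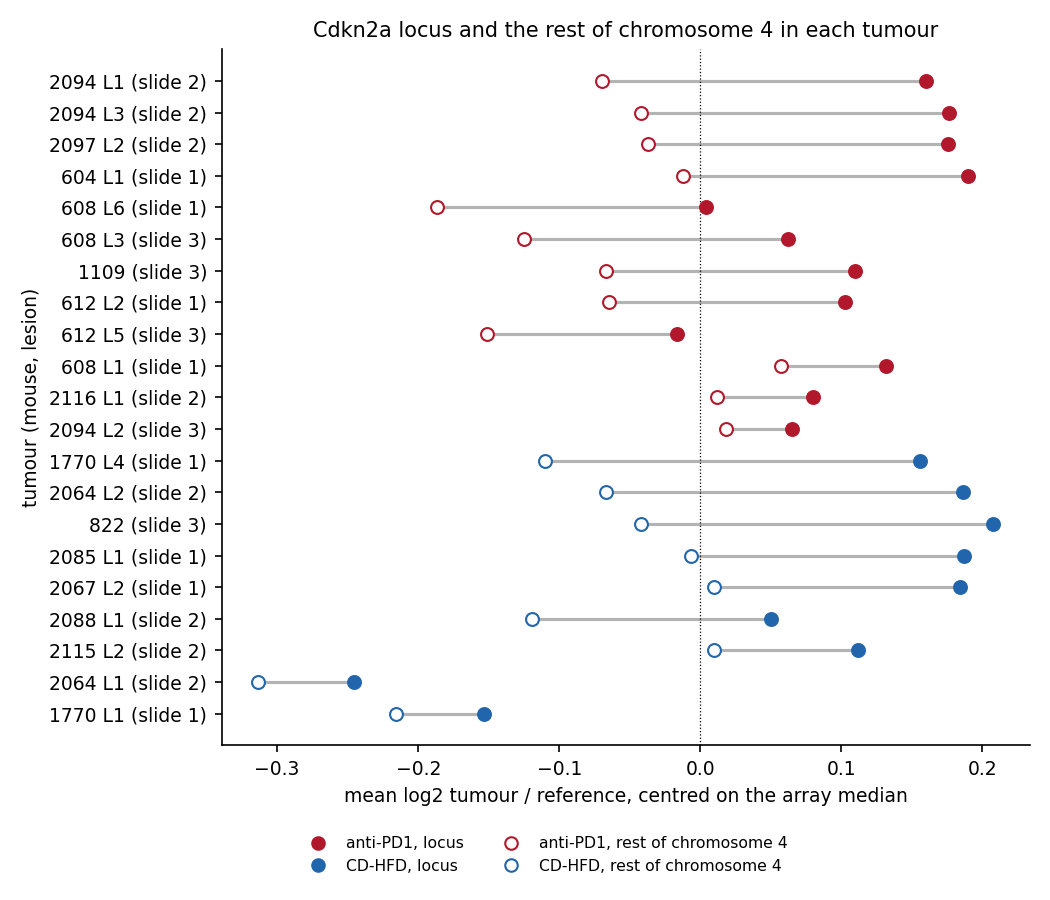
Mean log2 ratio of the locus (filled) and of the rest of chromosome 4 (open) in each of the 21 tumours, ordered within group by the distance between them, with the mouse, lesion and slide named. The filled point lies to the right of the open one in every tumour, and lesion 1 of mouse 2064 and lesion 1 of mouse 1770 have both points furthest left.

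Mice with a low chromosome 4 tended to have a low locus. Across 14 mice its mean correlated with that of the rest of chromosome 4 at Pearson r = 0.81 (permutation p = 0.00038) and Spearman rho = 0.67 (permutation p = 0.0098), the only relation across mice that was computed. Without mice 1770 and 2064, the farthest from the median, r was 0.61 (permutation p = 0.037) and rho 0.48 (permutation p = 0.12), so the rank relation was no longer past the threshold without those 2 mice. The processing changed this. After the 50-kb GC correction rho was 0.95, and 0.92 without the 2 mice (permutation p = 0.0001). In the authors' loess-normalized table rho was 0.27 (permutation p = 0.35), and r was 0.58 with all mice (permutation p = 0.033) and -0.12 without the 2 (permutation p = 0.70). Within slide 1 r was 0.96 (exact permutation p = 0.017) and rho 0.71 (exact permutation p = 0.14), and within slide 2 r was 0.69 (exact permutation p = 0.12) and rho 0.49 (exact permutation p = 0.36), with 6 mice each. Both measures come from the same arrays.

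Losses called at Cdkn2a were those of a pair of CD-HFD tumours, and in both of them low values ran along most of the chromosome. When each chromosome was divided into segments and a mean of -0.2 or less was called a loss, Cdkn2a lay in a lost segment in 0 of 12 anti-PD1 and 2 of 9 CD-HFD tumours (p = 0.46, exact permutation of mice on the share of tumours). Over all positions and tumours 8.48% were called lost, so 2 of 21 tumours was near the share at any position. In lesion 1 of mouse 1770 the segment was the whole probed chromosome, 153 Mb with a mean of -0.21, and in lesion 1 of mouse 2064 it ran for 114 Mb, from the first probe to 27.7 Mb beyond Cdkn2a, with a mean of -0.25. That end was not particular to this tumour, since segments of many tumours without a loss call ended near the same place. With a doubled penalty the segment of lesion 1 of mouse 2064 was the whole probed chromosome, 152 Mb with a mean of -0.31. It also spanned the whole probed chromosome after either GC correction, with means of -0.33 and -0.32. A gain was called in 1 anti-PD1 tumour, lesion 2 of mouse 2097 (mean 0.24 over 30.4 Mb), and in 1 CD-HFD tumour, that of mouse 822 (mean 0.21 over 39.4 Mb), where 13% of all positions were called gained. The gains numbered 0 under each of 7 alternatives and 5 with a threshold of 0.1. The nearest segment boundary was 10.4 Mb from Cdkn2a, so no tumour had a segment of at least 10 probes confined to the locus. By the plain difference of 0.2 between the locus and the rest of the chromosome, 7 of 21 tumours were higher and 0 lower, where 9.03% of all 6-Mb stretches were higher and 4.9% lower.

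Lesion 1 of mouse 2064 fell furthest within 500 kb of Cdkn2a. There its mean was -0.54, against -0.11 to 0.32 in the other 20 tumours, while the rest of its chromosome 4 was at -0.31. Because single probes differ in their baseline, each probe was also set against its median over the arrays of the same design, a scale added after seeing the data. On it 17 of the 18 probes were below 0 with a mean of -0.57 ± 0.13 (SE over probes), against -0.26 to 0.18 in the other tumours, and 2 were at -1 or less, where 1.59% of all probe values of this tumour and 0.516% of those of all tumours were. The median of the 18 was -0.45. One probe, A_53_P122639, was at -2.32 there with a spot not well above background, against -0.36 to 0.57 in the other tumours. Without it, an alternative added after seeing the data, the mean of the other 17 was -0.47 ± 0.092 (SE over probes), still the lowest of the 21 tumours. The rest of chromosome 4 was at -0.25, which left a further -0.32 within 500 kb, and -0.22 without that probe. In the other tumours this difference ran from -0.18 to 0.13, and from -0.21 to 0.14 without the probe. Of 1850 windows of 1 Mb in the same tumour, 10 lay 0.32 or more below their chromosome, and 5.19% were at -0.2 or less, where over all tumours 1.52% were. Along the locus the values did not form a single step. Half-megabase bins were at -0.52 ± 0.11 and -0.65 ± 0.31 (SE over 11 and 7 probes) on either side of Cdkn2a, the second at -0.37 without A_53_P122639, and at -0.25 and -0.21 beyond them, but a bin 1.5 to 2.0 Mb away on the Mtap side was at -0.61, and one 2.0 to 2.5 Mb away on the other side was at 0.086 with 3 probes. The further fall was seen with -0.23 on the uncorrected scale, -0.30 after probe GC correction, -0.36 after the 50-kb correction, -0.14 with well-measured probes only and -0.063 with another background correction, the lowest of the 21 tumours each time. Without A_53_P122639 the uncorrected value was -0.13, and over the 4 other probes of the stretch that both designs share it was 0.16, which ranked ninth from the lowest. In the authors' loess-normalized table, with 4 probes, it was 0.14, which ranked twelfth from the lowest. The part that the dim array had in these values was not tested.

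**Figure D3:**
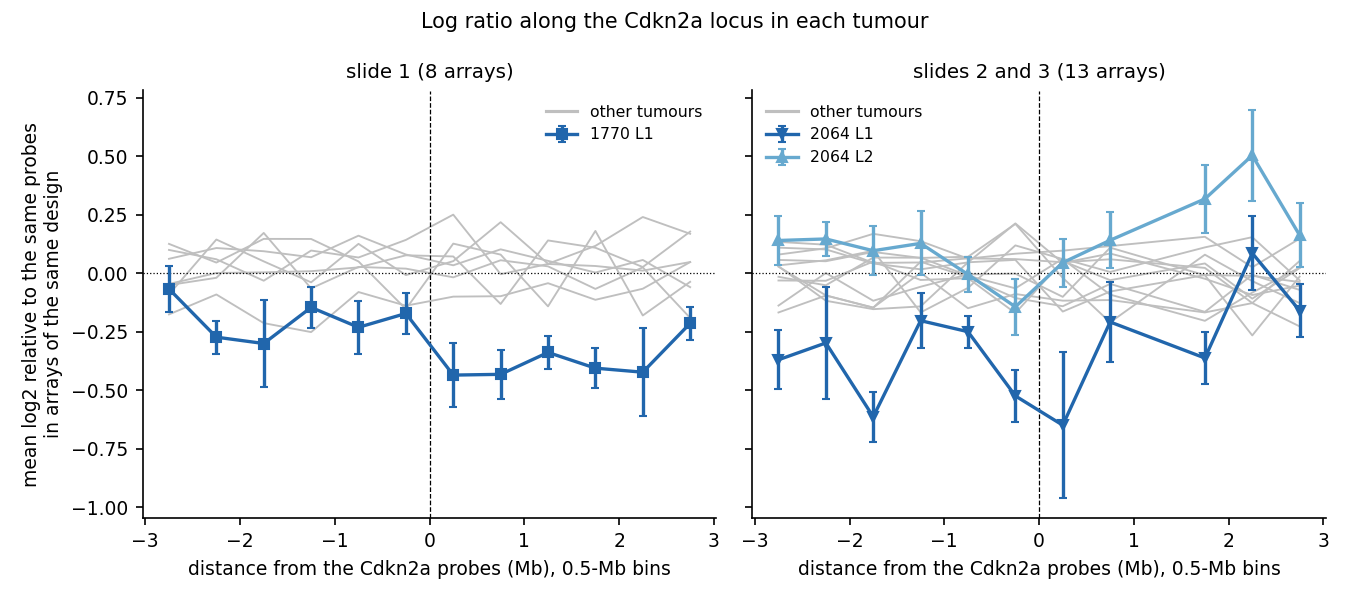
Mean log2 ratio relative to the same probes in arrays of the same design, in 0.5-Mb bins against distance from the Cdkn2a probes, for the 8 arrays of slide 1 (left) and the 13 of slides 2 and 3 (right); bars are standard errors over probes, and bins with no probe on a design are not drawn. In the bins on either side of Cdkn2a, lesion 1 of mouse 2064 was the lowest of slides 2 and 3 (-0.52 and -0.65, the latter -0.37 without 1 dim probe). It was also at -0.61 in a bin further out on the Mtap side. Lesion 1 of mouse 1770 was low over most of the stretch, with -0.44 in the second of the bins beside Cdkn2a. In these 2 bins lesion 2 of mouse 2064 was at -0.14 and 0.045.

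The second lesion of each of these mice did not share the pattern. Relative to the same probes, the mean within 500 kb was -0.57 in lesion 1 and -0.070 in lesion 2 of mouse 2064, and -0.26 in lesion 1 and 0.075 in lesion 4 of mouse 1770, the members of each pair being on the same slide. The 3 anti-PD1 mice with several lesions, 608, 612 and 2094, spanned 0.086, 0.11 and 0.18 between their lesions, of which at least 1 in each mouse lay on another slide than the rest. The widest span, 0.50, was that of mouse 2064. In lesion 1 of mouse 1770 the rest of chromosome 4 was at -0.16 against the -0.26 within 500 kb, a smaller gap than in lesion 1 of mouse 2064.

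Cdkn2a itself, as the mean of the probes on all arrays, was at -0.67 to 0.13 (median -0.27) in anti-PD1 and -0.87 to 0.15 (median -0.11) in CD-HFD tumours. Averaged by mouse it was -0.20 ± 0.18 and -0.14 ± 0.17 (SD, n = 7 each; exact permutation p = 0.47). The shared pair of probes differed from each other. A_53_P131690 was at 0.14 ± 0.17 with anti-PD1 and 0.0021 ± 0.25 with CD-HFD (SD, n = 7 each; exact permutation p = 0.27), and A_53_P176202 at -0.55 ± 0.25 and -0.27 ± 0.22 (SD, n = 7 each; exact permutation p = 0.055), with p not adjusted for the pair. One was higher and the other lower with anti-PD1, neither past the threshold, and both read the same intron. In limma across 13489 genes, each the mean of its probes with the array design as a term, Cdkn2a differed by 0.054 ± 0.10 (SE, adjusted p = 0.93). No gene passed at an adjusted p under 0.05 (0% called), with 952 at an unadjusted p under 0.05.

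Single Cdkn2a values of -1 or less occurred once each in 3 tumours. Lesion 1 of mouse 1770 was at -1.19 on A_53_P131690, where the spot was not well above background, and at -0.19 to -0.54 on its other Cdkn2a probes. In lesion 6 of mouse 608 A_53_P176202 was at -1.26 and the other 3 probes at 0.022, 0.15 and -0.082. Lesion 1 of mouse 2064 was at -1.46 on A_67_P00925290, and at -0.39 and -0.79 on A_53_P131690 and A_53_P176202. All 3 of its Cdkn2a probes were thus below -0.2. So were those of the anti-PD1 lesion 2 of mouse 2094, at -0.23 on A_53_P131690, -0.75 on A_67_P00925290 and -0.63 on A_53_P176202. The median over tumours was 0.13 on A_53_P131690, but -0.50 on A_67_P00925290 and -0.51 on A_53_P176202. A value below -0.2 was therefore common on the latter pair. Over the whole genome 3.38% of probe values were at -1 or less. Relative to the same probes the mean of Cdkn2a was -0.65 in lesion 1 of mouse 2064 and -0.51 in lesion 1 of mouse 1770, with -0.31 to 0.28 in the other 19.

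Mtap read differently from Cdkn2a in lesion 1 of mouse 1770, but was low together with it in lesion 1 of mouse 2064. Relative to the same probes, that lesion of mouse 2064 was at -0.48 on Mtap and -0.65 on Cdkn2a. On slide 1 the Mtap probe was at -0.081 to 0.43 (median 0.31) in 4 anti-PD1 tumours and 0.37 to 0.68 (median 0.53) in 4 CD-HFD tumours, and lesion 1 of mouse 1770 was at 0.37, near the median of 0.40 over all 8. On slides 2 and 3 the intronic probe A_53_P106215 was at -0.13 to 0.30 (median 0.17) in 8 anti-PD1 tumours and -0.60 to 0.028 (median -0.30) in 5 CD-HFD tumours, and the exonic probe A_53_P146297 at -0.42 to 0.14 (median -0.37) and -1.23 to -0.30 (median -0.66). The groups overlapped on all 3 probes, and the medians of CD-HFD were the higher on slide 1 and the lower on slides 2 and 3. Lesion 2 of mouse 2064 was the lowest on both, at -0.60 and -1.23, followed relative to the same probes by lesion 1 of that mouse, although Cdkn2a was at -0.11 in lesion 2 on that scale. By mouse the gene mean was 0.027 ± 0.15 with anti-PD1 and -0.0076 ± 0.57 with CD-HFD (SD, n = 7 each), where the designs differ in baseline. With the design as a term anti-PD1 was 0.16 ± 0.11 higher (SE, adjusted p = 0.77, limma). Mouse 2064 carried this value, which was -0.010 without it.

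**Figure D4:**
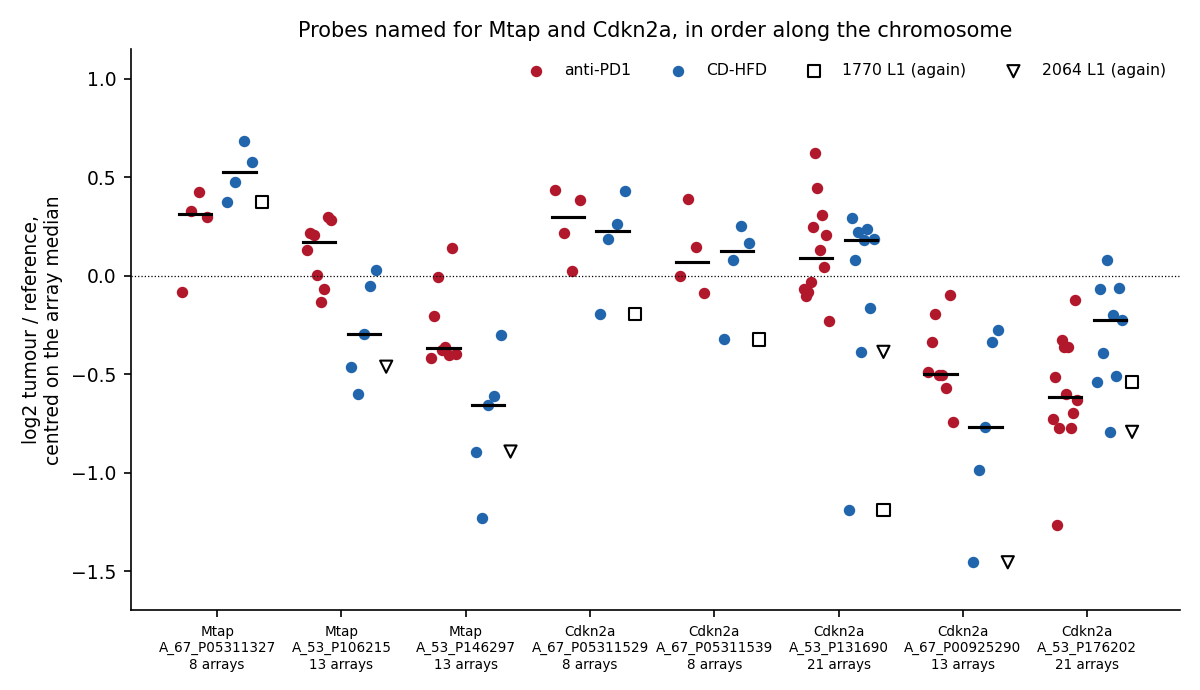
Log2 ratio of each tumour (points; red anti-PD1, blue CD-HFD; bars are medians) on the 3 Mtap and 5 Cdkn2a probes in order along the chromosome, with lesion 1 of mouse 1770 (squares) and lesion 1 of mouse 2064 (triangles) drawn again beside. Probes differ in baseline, for example a median of 0.13 on A_53_P131690 and -0.51 on A_53_P176202 over 21 arrays, so a level is read against the same probe.

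For Cdkn2b the nearest reading was the probe A_53_P119457 on slides 2 and 3. It was at -0.30 to 0.46 (median 0.14) in 8 anti-PD1 and -0.18 to 0.47 (median 0.26) in 5 CD-HFD tumours, with full overlap. Its highest value, 0.47, was in lesion 1 of mouse 2064, the tumour with the lowest mean of Cdkn2a relative to the same probes.

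Beyond the members, 38 other genes or transcripts were named by probes of the locus. Of these, 15 had at least 1 named probe on each array, not always the same one, and were tested. For Adamtsl1 the probes on slides 2 and 3 lay outside the locus. None of the 15 passed in limma across genes, and 1 was at an unadjusted p under 0.05, where 952 of all 13489 genes tested were. Their median difference was 0.037 against -0.0050 over all genes tested. The 1 under that unadjusted p was AK148321, an unannotated transcript. Its probes ran from just beyond Cdkn2a to past Cdkn2b, at mm9 chr4:88943968-89039446. AK148321 was at 0.036 ± 0.064 with anti-PD1 and -0.18 ± 0.20 with CD-HFD (SD, n = 7 each; difference 0.27 ± 0.10 SE, adjusted p = 0.64, limma). Relative to the same probes its lowest mean, -0.79 over 3 probes, was in lesion 1 of mouse 2064, where the probes were at 0.29, -0.34 and -2.32. Without the last of these, A_53_P122639, the mean was -0.025. The next smallest p belonged to Elavl2, a neuronal RNA-binding protein (-0.17 ± 0.088, SE, adjusted p = 0.71, limma), and Haus6, a subunit of the augmin complex of the mitotic spindle (-0.21 ± 0.11, SE, adjusted p = 0.71, limma).

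Nearest to Cdkn2a on the Mtap side were the transcripts ENSMUST00000129527 and ENSMUST00000154352, on slide 1 only, at -0.16 to 0.35 and -0.39 to 0.019 over 8 tumours. On the other side, beyond AK148321, were ENSMUST00000139272, on slide 1 only at -0.10 to 0.41, and Dmrta1, a DM-domain transcription factor gene, on slides 2 and 3 only at -1.22 to -0.24 over 13 tumours. In lesion 1 of mouse 1770 the 3 slide 1 transcripts were at -0.024 to -0.21 relative to the same probes. Lesion 1 of mouse 2064 was at -0.22 on Dmrta1, less low than its Cdkn2a.

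The type I interferon genes, whose secreted products signal antiviral defence, lie on the Mtap side and are often lost with Cdkn2a in deletions of this region. Ifna13 had a probe on every array and was at 0.32 ± 0.34 with anti-PD1 and 0.16 ± 0.18 with CD-HFD (SD, n = 7 each; difference 0.21 ± 0.12 SE, adjusted p = 0.72, limma). Its lowest relative value, -0.56, was in lesion 1 of mouse 1770, with lesion 1 of mouse 2064 at -0.43. Ifnb1, Ifna12 and Ifne had 1 probe each on slides 2 and 3. In lesion 1 of mouse 2064 they were at 0.20, -0.79 and -0.31 relative to the same probes, so 1 of the 3 was above 0 and the others below.

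Elsewhere in the genome, genes that act with the members were read from the same gene fit. In that fit 952 of all 13489 genes tested were at an unadjusted p under 0.05. Of 22 cell cycle genes on the p16 to Rb1 and p19Arf to p53 paths, 15 were tested and 0 passed in either direction, with 2 at an unadjusted p under 0.05 and a median difference of -0.020. The highest were Cdkn2c, another inhibitor of Cdk4 and Cdk6 (0.23 ± 0.083, SE, adjusted p = 0.62, limma), and the transcription factor E2f1 (0.21 ± 0.11, SE, adjusted p = 0.72, limma). The lowest were E2f3 (-0.20 ± 0.095, SE, adjusted p = 0.70, limma) and the Rb1 relative Rbl2 (-0.20 ± 0.10, SE, adjusted p = 0.71, limma). Of 11 genes of methionine salvage, polyamine synthesis and the Prmt5 complex, 5 were tested and 0 passed, with 2 at an unadjusted p under 0.05 and a median of -0.040. Here Wdr77, the partner of Prmt5, was highest (0.22 ± 0.094, SE, adjusted p = 0.70, limma), followed by the salvage enzyme Adi1 (0.050 ± 0.098, SE, adjusted p = 0.93, limma), while Enoph1, another salvage enzyme (-0.38 ± 0.13, SE, adjusted p = 0.61, limma), and the spermine synthase gene Sms (-0.18 ± 0.092, SE, adjusted p = 0.71, limma) were lowest. Prmt5 had 3 probes on slides 2 and 3 and 0 on slide 1, and was not fitted. Relative to the same probes Cdkn2c, which also lies on chromosome 4, was lowest in lesion 1 of mouse 2064, at -0.69.

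Over the 21 tumours, the genes outside the locus whose level was most like the mean within 500 kb of Cdkn2a were Slc38a9 on chromosome 13 (Pearson r = 0.90), Abca1 and Grin3a on chromosome 4 (0.88 each), Cdk5rap2 on chromosome 4 (0.87) and Atg10 on chromosome 13 (0.87), among 1951 genes with 3 or more probes on every array. All tumours share the reference pool and arrays share slides, so these values are a description of likeness and carry no test.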

How the data were processed

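The authors deposited, for each of 21 two-colour arrays (tumour Cy3, reference Cy5, no dye swap), scanner intensity values of both channels; per the file headers the processed signals are background-subtracted, detrended and linearly dye-normalized. A further table deposited by the authors gives log2 ratios after loess, used as an alternative, with 0 columns left unmatched. Here the log2 ratio of tumour to reference was computed from those signals, less the median of its array; control spots and outlier flags were left out and spots of a probe averaged. Positions are mm9 as deposited. Annotation used exact matches to GRCm38, with GENCODE genes for introns and exons and RefSeq for the Cdkn2a transcripts. Slides were read from the file names. The tumours of a mouse were averaged before exact permutation (numpy 2.4.6). Correlation coefficients came from scipy 1.17.1. Windows of 1 Mb (at least 5 probes on every array) and genes were fitted with limma 3.58.1 in R 4.3.3, with the mouse as a block (duplicateCorrelation) and Benjamini-Hochberg adjustment. Segments of at least 10 probes came from optimal partitioning (penalty factor 3, scaled by noise and probe number). Of 23451 gene names in the files, 17173 were RefSeq symbols, 1632 were matched through a synonym and 4646 were kept. The fit was tested on simulated data. Named genes were the members, the 3 nearest genes on either side, the interferon genes, the 3 smallest p values, the 2 highest and 2 lowest of each gene list, and the 5 most alike genes. Members, gene lists and alternatives were chosen with earlier results of these data known. The number of probes and arrays limits the precision.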

Additional observations from a re-analysis of the deposited data

Results flagged for a closer look

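Within 500 kb of Cdkn2a, lesion 1 of mouse 2064 was at -0.54, far from the other 8 CD-HFD tumours (-0.11 to 0.32). Its difference from the rest of chromosome 4 relative to the same probes, -0.32, was far from the others as well (-0.099 to 0.13). Both rested in part on the dim probe A_53_P122639. Without it the gap to the next CD-HFD tumour was 0.44 and 0.33 of the range, under the critical 0.493. Among anti-PD1 mice, mouse 2116, with 1 tumour, stood apart. The locus was 0.068 above the rest of chromosome 4, against 0.15 to 0.21 in the other 6 mice, and the stretch within 500 kb differed from the rest of chromosome 4 by -0.064, against 0.11 to 0.19. These were 4 of 24 groups of values examined, many of them overlapping, where chance alone flags about 1 in 20.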

How the results depend on the processing

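No group difference passed its threshold under any alternative run. That of the locus turned from 0.012 to -0.0043 with another background correction (normexp), -0.0023 with well-measured probes and -0.019 without lesion 1 of mouse 2064, and ran from -0.0096 to 0.030 with each mouse left out. Within 500 kb it turned from 0.023 to -0.020 in the loess-normalized table, -0.019 with well-measured probes and -0.013 without that lesion, and ran from -0.034 to 0.068 with each mouse left out (-0.034 without mouse 2064, 0.068 without mouse 2085). With each mouse left out, the difference of the whole locus minus the rest of chromosome 4 ran from -0.024 to 0.0030, Cdkn2a from -0.054 to 0.093, Mtap from -0.010 to 0.22 and the Cdkn2a window from -0.037 to 0.010. The offset of the locus was no longer past the threshold in the loess-normalized table (0.024) or against near flanks (0.039), and 0.16 to 0.17 with each mouse left out. Windows that differed from their chromosome numbered 804 with that loess source, which tests fewer windows, against 1649. Losses at Cdkn2a numbered 0 at a threshold of 0.3 and with normexp, against 2. Gains numbered 5 at a threshold of 0.1, and 0 at 0.3, with a doubled penalty, normexp, either GC correction, the median profile subtracted or values relative to the same probes. Tumours with the locus 0.2 higher numbered 7, but 0 with normexp, the median profile subtracted or the 50-kb GC correction, 2 with probe GC correction and 1 in the loess-normalized table; 16 were 0.1 higher and 0 were 0.3 higher. Which factor caused these changes was not tested. The 50-kb correction, the scale relative to the same probes and the removal of single tumours or of 1 probe were added after seeing the data. No paired analysis was possible because each mouse belonged to 1 group. Sparse probes limit these results, with 18 to 22 within 500 kb of Cdkn2a and none in Cdkn2b.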
